A study of Mus musculus with 4 samples.

Results

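The genes of polyamine metabolism were followed in mouse CD4+ T cells through the first hours of culture toward induced Treg (iTreg) cells, in wild-type (WT) cells and in cells labelled as lacking Nr4a1, Nr4a2 and Nr4a3 (Nr4a-TKO). The set held 9 genes chosen by name, Odc1, Srm, Sms, Amd1, Oaz1, Oaz2, Azin1, Sat1 and Smox, each read by all probes that carry its name in the scanner files. Of the 9 genes, 8 were found in this way, with 18 probes, among 32877 genes with values on the array. No probe carried the name Amd1, and 4 probes under the name of its close relative Amd2 are described separately below. Naive T and iTreg cells at 3 h of each genotype made 4 groups, and each group was measured on 1 single-colour Agilent array, so that every difference below is a value without a replicate and without a test.

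Naive cells had been sorted from spleen and lymph nodes as CD4+ cells high in CD62L, low in CD44 and CD25 and negative for Foxp3, from C57BL/6J bone marrow chimeras made in irradiated Rag2-/- recipients. Nr4a-TKO cells carry floxed Nr4a1 and Nr4a2 alleles and a germline Nr4a3 deletion, together with a Foxp3 hCD2-hCD52 knock-in reporter, and the Cre that deletes the floxed alleles is not given in the sources used here. They came from mixed chimeras that also held WT marrow, whereas WT cells came from chimeras given WT marrow alone, and genotype and kind of chimera therefore cannot be told apart. The age and number of the animals behind each array are not stated in the labels. The methods give an age range and both sexes for the mouse strains, without tying either to an array. The iTreg cells were the same kind of naive cells after 3 h on plate-bound anti-CD3 (2 µg/ml) with anti-CD28 (0.5 µg/ml), anti-IFN-γ and anti-IL-4 (each at 1 µg/ml), IL-2 (10 ng/ml) and TGF-β1, for which the labels give 0.2 or 0.5 ng/ml without saying which was used for the array.

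Polyamines are small positively charged molecules that bind nucleic acids and are needed for growth and protein synthesis. Ornithine decarboxylase makes putrescine from ornithine, and spermidine synthase and spermine synthase extend it with aminopropyl groups taken from decarboxylated S-adenosylmethionine (AdoMet), which the AMD enzyme provides. Cells hold the pool in check through antizymes, which bind ornithine decarboxylase and send it to the proteasome, through antizyme inhibitors, which keep antizymes occupied, and through acetylation and oxidation of spermidine and spermine. Resting T cells keep synthesis low, and activated T cells are known to raise it before they divide.

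The targeted genes did not bear out the genotype labels in full. Nr4a1 read 7.05 in WT naive T, 8.39 in Nr4a-TKO naive T, 11.34 in WT iTreg at 3 h and 11.83 in Nr4a-TKO iTreg at 3 h, and was thus higher under the label Nr4a-TKO at both stages. Nr4a2 read 6.24, 6.44, 8.84 and 10.20 in the same order, again higher under that label. Nr4a3 read 6.88, 6.90, 9.46 and 9.65 with the probe that stands for the gene, while its other probes differed by -1.48 and -1.87 at 3 h, lower under the label Nr4a-TKO. Whether these probes lie inside the deleted parts was not worked out here, and a probe outside them checks nothing, so that WT and Nr4a-TKO below mean the arrays labelled so. The cell type markers Cd3e and Cd4 were well above background on every array. The myeloid markers depended on the probe. The representative Itgam probe read from 14.98 to 15.14 over the arrays, brighter than that of Cd3e, from 12.19 to 13.05. The second Itgam probe read from 4.71 to 6.25. Csf1r read from 11.16 to 11.76, with 6.18 to 6.41 by its second probe, and Lyz2 from 3.79 to 4.27. The source of these signals was not tested. At 3 h all 6 naive T cell markers were lower than in naive T in both genotypes, 4 of them more than 2-fold in WT and 5 in Nr4a-TKO, and the 3 activation markers Cd69, Egr2 and Tnfrsf9 were more than 2-fold higher. The arrays held 56605 probes each, with 64.9 to 67.6% of them well above background, no saturated spot, 1 slide and 1 scan.

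The polyamine genes that rose more than 2-fold in culture were the synthesis genes with probes of their own name and 1 gene of catabolism. Azin1, the gene of an antizyme inhibitor, also rose in both genotypes, by 0.85 in WT and 0.67 in Nr4a-TKO, short of 2-fold. Odc1, Srm, Sms and Smox were each more than 2-fold higher at 3 h than in naive T, in WT and in Nr4a-TKO alike, and no member was more than 2-fold lower. That is 4 of 8 members higher in WT, where 8.46% of the 23418 genes compared passed 2-fold upward and 8.45% downward. In Nr4a-TKO it is again 4 of 8, beside 7.69% of 23920 genes upward and 8.01% downward. The median log2 difference of the 8 members was 1.03 in WT and 0.93 in Nr4a-TKO, while the medians over all genes were -0.05 and -0.02. At the level of probes, 10 of the 18 member probes were more than 2-fold higher in WT. In Nr4a-TKO, 10 of the 17 that could be compared were, and none was more than 2-fold lower in either genotype. Over all probes, 9.34% of 39343 passed 2-fold upward and 8.41% downward in WT, against 8.16% and 7.98% of 40242 in Nr4a-TKO. All values are log2 signals after the arrays had been brought to the same overall distribution. They are therefore relative to the other transcripts, and more RNA per cell, or a change in the mix of cells in the culture, cannot be told apart from a change within each cell. From repeated spots of a probe within an array, the SD of such a difference was 0.18 in either genotype, which covers the array only and not mice or cultures.

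**Figure D1:**
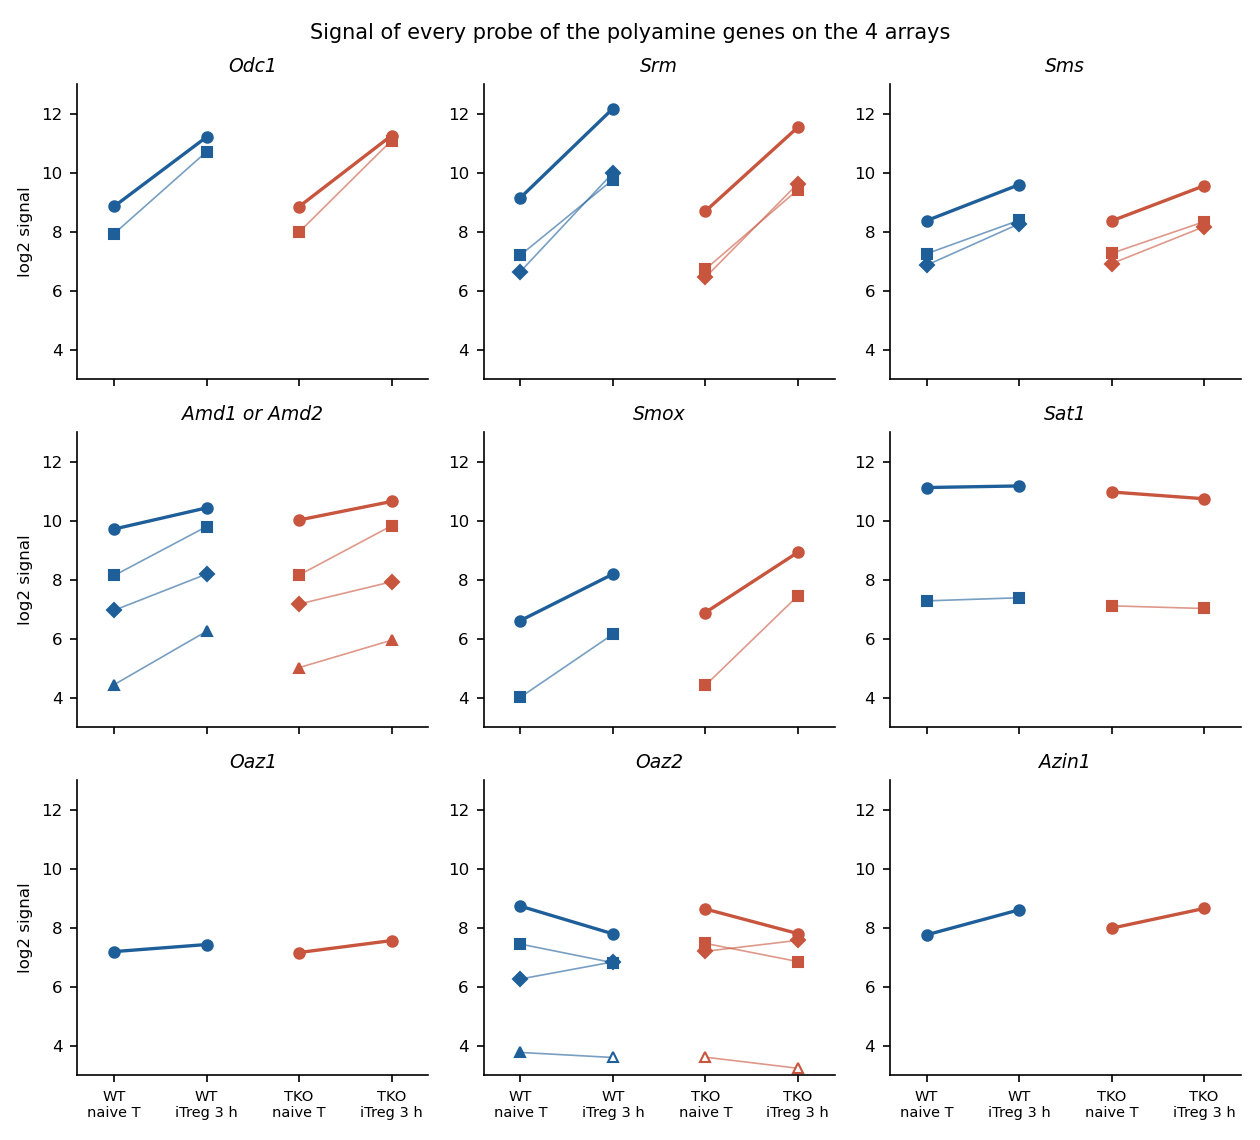
Log2 signal (vertical axis) of every probe of the polyamine genes on the 4 arrays (horizontal axis), WT in blue and Nr4a-TKO (TKO) in red. Each symbol is 1 probe, thicker lines mark the probe that stands for its gene, open symbols were not well above background, and the panel "Amd1 or Amd2" holds the 4 probes named Amd2. The lines of Odc1, Srm, Sms and Smox climb in both genotypes, whereas those of Sat1 and Oaz1 stay nearly level and 2 of the 3 Oaz2 probes measured on all arrays slope down.

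For 3 of the 4 genes that rose together, the promoter is shown as RefSeq gives it (GRCm38.p6), with the 250 bases before the annotated start written 5′ to 3′ on the strand of the gene. Capitals mark the E-box CACGTG (bound by Myc with Max), the Ets motif AGGAAG or its reverse complement CTTCCT, and the GC box GGGCGG or its reverse complement CCGCCC (bound by Sp factors), where neighbouring GC boxes may overlap. Odc1 lies at chr12:17544623-17544872 (plus strand) and Smox at chr2:131491612-131491861 (plus strand). Sms has 2 windows, at chrX:157491369-157491618 and at chrX:157492288-157492537 (both minus strand).
Odc1: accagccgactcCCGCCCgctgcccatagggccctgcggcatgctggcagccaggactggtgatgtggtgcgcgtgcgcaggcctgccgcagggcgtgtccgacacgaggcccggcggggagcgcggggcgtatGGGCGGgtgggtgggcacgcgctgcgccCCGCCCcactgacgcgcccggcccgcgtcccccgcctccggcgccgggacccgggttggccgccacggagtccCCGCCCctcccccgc
Smox: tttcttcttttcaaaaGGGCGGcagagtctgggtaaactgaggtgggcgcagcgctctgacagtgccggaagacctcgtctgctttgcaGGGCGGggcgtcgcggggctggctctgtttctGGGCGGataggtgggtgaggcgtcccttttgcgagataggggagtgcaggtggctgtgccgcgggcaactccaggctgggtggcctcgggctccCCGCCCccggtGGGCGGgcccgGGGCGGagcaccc
Sms, the first window: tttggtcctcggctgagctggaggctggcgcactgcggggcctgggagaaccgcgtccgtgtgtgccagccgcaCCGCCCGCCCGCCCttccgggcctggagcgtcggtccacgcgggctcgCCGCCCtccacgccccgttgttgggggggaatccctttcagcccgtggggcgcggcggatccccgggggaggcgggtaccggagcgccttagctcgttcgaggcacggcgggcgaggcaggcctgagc
Sms, the second window: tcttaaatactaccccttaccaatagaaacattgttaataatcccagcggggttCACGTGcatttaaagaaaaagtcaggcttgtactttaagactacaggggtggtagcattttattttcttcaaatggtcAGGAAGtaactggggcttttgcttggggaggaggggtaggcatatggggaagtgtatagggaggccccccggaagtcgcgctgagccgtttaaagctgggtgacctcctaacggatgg

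The upstream windows of Odc1 and of Smox held 4 and 6 GC boxes and neither an E-box nor an Ets motif, and 80.0% and 68.0% of their bases were G or C. The first window of Sms held 4 GC boxes, of which neighbouring ones overlap, at 75.2% G or C. The second window of Sms had no GC box but held 1 E-box, 196 bases before the start, and 1 Ets motif, 118 bases before it. Of the 9 genes, 7 had such a window in the table, and 8 windows in all were searched on both strands. An E-box was present for 1 gene of 7, the Nr4a monomer site AAAGGTCA for 0 and the Ets motif for 3 (Amd1, Sat1 and Sms). The GC box was present for 6 (Amd1, Oaz2, Odc1, Sat1, Smox and Sms). Oaz2, with 3 GC boxes, and Sat1, with 2, were not more than 2-fold higher at 3 h. These counts are per gene, in either window of Sms, whereas the shares that follow are per window. Over all 32851 windows of the same length, 6.02% held the E-box, 1.34% the Nr4a site, 29.5% the Ets motif and 32.7% the GC box, which was added to the search after the windows had been seen. A match or its absence describes the letters of these windows only, and bases after the start were not searched.

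Odc1 encodes ornithine decarboxylase, the rate-limiting enzyme of polyamine synthesis. Its log2 signal was 8.87 in WT naive T, 8.86 in Nr4a-TKO naive T, 11.22 in WT iTreg at 3 h and 11.27 in Nr4a-TKO iTreg at 3 h (probe at chr12:17557831-17557890, mm9). Both 3 h arrays were thus high and both naive arrays low, with hardly any distance between the genotypes at either stage. The difference was 2.35 in WT (5.1-fold) and 2.41 in Nr4a-TKO (5.31-fold), at rank 229 from the top of 23418 genes and at rank 157 of 23920. A second probe (chr12:17554799-17554858) read 7.95 and 8.0 on the WT and Nr4a-TKO naive arrays and 10.73 and 11.10 on the 3 h arrays. It moved further than the first, by 2.78 in WT and 3.11 in Nr4a-TKO.

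Srm encodes spermidine synthase, which turns putrescine into spermidine, and it had the largest change among the 8 members in both genotypes. Its log2 signal was 9.16 in WT naive T, 8.70 in Nr4a-TKO naive T, 12.18 in WT iTreg at 3 h and 11.55 in Nr4a-TKO iTreg at 3 h (probe at chr4:147968254-147968313, mm9). The signal was higher on both 3 h arrays than on both naive arrays, and at each stage the array labelled Nr4a-TKO was the lower one. The difference between stages was 3.02 in WT (8.12-fold) and 2.85 in Nr4a-TKO, ranking 80 of 23418 and 75 of 23920 genes from the top. The other probes gave 2.56 and 3.35 in WT and 2.70 and 3.18 in Nr4a-TKO, and the smallest rise among the 3 probes was 5.88-fold in WT.

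Sms encodes spermine synthase, which makes spermine from spermidine, and it rose less than Odc1 and Srm did. Its log2 signal was 8.39 in WT naive T, 8.37 in Nr4a-TKO naive T, 9.60 in WT iTreg at 3 h and 9.57 in Nr4a-TKO iTreg at 3 h (probe at chrX:153883706-153883765, mm9, minus strand). The values of the genotypes lay within 0.04 of each other at both stages. The rise was 1.22 in WT (2.33-fold) and 1.19 in Nr4a-TKO (2.28-fold), and 5.97% and 5.31% of all genes compared had a higher value. All 3 probes named Sms rose more than 2-fold, by 1.13 to 1.40 in WT and by 1.07 to 1.25 in Nr4a-TKO. Another pair of probes, which the files name by an Ensembl transcript and describe as spermine synthase, was not part of the set. The first, well above background on all 4 arrays, gave 0.92 in WT with 0.87 in Nr4a-TKO, and the second, well above background on 3, gave 1.28 and 0.17.

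Amd1 encodes S-adenosylmethionine decarboxylase, which supplies the aminopropyl donor for both synthases. It could not be read on its own, since no probe carries its name and the 4 probes named Amd2 in the files list the Amd1 transcript. The files place them on the minus strand between chr10:40007295-40007354 and chr10:40021828-40021887 (mm9). The RefSeq promoter windows, on another build and not converted, start at position 40302189 of chromosome 10 for Amd1 and at 35711892 for Amd2. For scale, the Oaz1 probe on the same chromosome starts at 80291216 (mm9) and the Oaz1 window at 80826406. The files thus place the probes near the Amd1 window rather than that of Amd2, although they name the probes Amd2. Of these 4 probes, the one that stood for the name read 9.72 in WT naive T, 10.03 in Nr4a-TKO naive T, 10.44 in WT iTreg at 3 h and 10.65 in Nr4a-TKO iTreg at 3 h. It was higher at 3 h in both genotypes without reaching 2-fold, by 0.72 in WT and 0.63 in Nr4a-TKO. The probe at chr10:40007295-40007354 went from 8.15 to 9.80 in WT and from 8.16 to 9.83 in Nr4a-TKO, a rise of 1.66 and 1.67. The remaining probes gave 1.23 and 1.81 in WT, against 0.75 and 0.93 in Nr4a-TKO. The probes thus disagree in size, with 3 of 4 more than 2-fold higher in WT and 1 of 4 in Nr4a-TKO, and all 4 in the same direction.

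Smox encodes spermine oxidase, which turns spermine back into spermidine and releases hydrogen peroxide. Its log2 signal was 6.62 in WT naive T, 6.89 in Nr4a-TKO naive T, 8.19 in WT iTreg at 3 h and 8.93 in Nr4a-TKO iTreg at 3 h (probe at chr2:131347853-131347912, mm9). Both 3 h arrays were above both naive arrays, and the 3 h array labelled Nr4a-TKO was the highest of the 4. The rise was 1.57 in WT (2.98-fold) and 2.04 in Nr4a-TKO (4.11-fold), exceeded by 3.39% and 1.21% of all genes compared. The second probe (chr2:131350711-131350770) rose from 4.02 to 6.15 in WT and from 4.42 to 7.45 in Nr4a-TKO, that is by 2.13 and 3.03. It was dim in naive T, where the lowest signals well above background were 3.45 in WT and 3.37 in Nr4a-TKO.

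Sat1 encodes spermidine/spermine acetyltransferase, which marks polyamines for export and oxidation, and it did not reach 2-fold. Its log2 signal was 11.13 in WT naive T, 10.98 in Nr4a-TKO naive T, 11.18 in WT iTreg at 3 h and 10.75 in Nr4a-TKO iTreg at 3 h (chrX:151647849-151647908, mm9, minus strand). The differences between stages were 0.05 in WT and -0.23 in Nr4a-TKO, the former within the array SD and the latter little beyond it. The second probe read 7.28, 7.12, 7.39 and 7.03 in the same order, with differences of 0.11 and -0.09.

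The regulators of ornithine decarboxylase moved less than the enzyme, and none of them reached 2-fold. Oaz1, which encodes antizyme 1, read 7.18 in WT naive T, 7.15 in Nr4a-TKO naive T, 7.42 in WT iTreg at 3 h and 7.56 in Nr4a-TKO iTreg at 3 h. Its differences of 0.24 and 0.40 were small beside the spread of all genes, as 66.9% of genes in WT and 47.6% in Nr4a-TKO changed by more in either direction. Antizyme is set chiefly by a polyamine-driven ribosomal frameshift, which a probe for the transcript does not read. Azin1, which encodes antizyme inhibitor 1, read 7.75 in WT naive T, 7.98 in Nr4a-TKO naive T, 8.60 in WT iTreg at 3 h and 8.65 in Nr4a-TKO iTreg at 3 h. Both 3 h values were above both naive values, by 0.85 in WT (1.80-fold) and 0.67 in Nr4a-TKO (1.59-fold).

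Oaz2, which encodes antizyme 2, was the only member whose representative probe was lower at 3 h in both genotypes by more than the array SD. That probe (chr9:65538045-65538104, mm9) read 8.72 in WT naive T, 8.63 in Nr4a-TKO naive T, 7.79 in WT iTreg at 3 h and 7.80 in Nr4a-TKO iTreg at 3 h. The differences of -0.94 and -0.83 stayed short of 2-fold. A second probe (chr9:65537593-65537652) differed by -0.63 and -0.62, whereas the third, upstream of both (chr9:65534090-65534149), differed by 0.58 and 0.37. The probes of Oaz2 therefore disagree in direction, and the mean over all 4 probes differed by -0.29 in WT and -0.36 in Nr4a-TKO. The fourth probe was well above background on the array of WT naive T alone, at 3.77, and its positions span 907 bases for a probe of 60 bases.

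**Figure D2:**
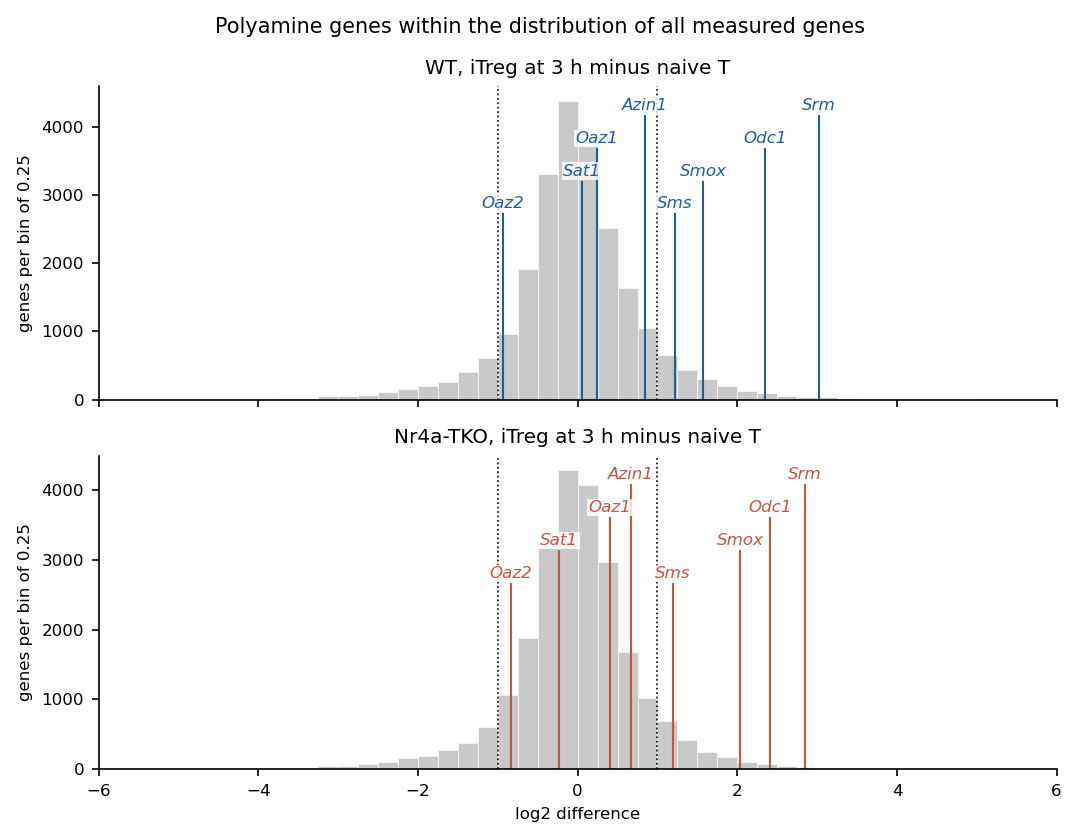
Number of genes (vertical axis, in bins of 0.25) by log2 difference between iTreg at 3 h and naive T (horizontal axis), for WT above and Nr4a-TKO below. Coloured lines mark the 8 polyamine genes with a probe, their heights being chosen for legibility only, and dotted lines mark 2-fold. Srm and Odc1 lie in the upper tail, Sms and Smox above 2-fold, and Oaz2 just inside 2-fold on the lower side.

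By the shape of its profile over the 4 arrays, Odc1 was nearest to 5 genes out of 15645 that had a symbol and a signal well above background throughout. They were Ncl (nucleolin, an abundant nucleolar protein of ribosome assembly), Ubtd2, Iars (isoleucyl-tRNA synthetase), Nhp2 (a component of H/ACA ribonucleoproteins) and Eef1e1 (an auxiliary protein of the aminoacyl-tRNA synthetase complex). Their Euclidean distances, after each gene had been centred on its own mean of log2 signal, were between 0.09 and 0.14. Ncl differed between stages by 2.39 in WT and 2.30 in Nr4a-TKO. Among the other members, Smox came at rank 320, Srm at 339 and Sms at 772, while Oaz2 came at 14117. With 4 arrays the order describes these arrays only.

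The genes around the pathway were read from 5 lists with 28 genes, of which 24 could be compared, the probes named Amd2 among them. In WT, 6 of the 24 were more than 2-fold higher at 3 h and 0 more than 2-fold lower, and the same numbers were found in Nr4a-TKO. The shares over all genes were 8.46% higher and 8.45% lower in WT, and 7.69% and 8.01% in Nr4a-TKO. In WT the genes called were Slc7a1, Aldh18a1, Agmat, Mat2a, Mtap and Eif5a, of which 5 were also called in Nr4a-TKO, where Agmat was not called and Oaz3 was. The median log2 difference of the 24 was 0.59 in WT and 0.53 in Nr4a-TKO. Slc7a1, a carrier of cationic amino acids such as arginine, rose by 2.56 in WT and 2.09 in Nr4a-TKO, from 8.56 and 8.36 in naive T to 11.12 and 10.45. Aldh18a1, which makes the precursor of both proline and ornithine from glutamate, rose by 2.05 and 1.58. Arginase 1 (Arg1) did not reach 2-fold, with 0.55 and 0.36, and neither did Oat, ornithine aminotransferase, with -0.26 and -0.40. Arg2 and Otc had no representative probe well above background on any array.

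The supply of AdoMet and the return of its by-product moved in part. Mat2a, the catalytic subunit of the AdoMet synthetase of most tissues, rose by 1.63 in WT and 1.57 in Nr4a-TKO. A second probe gave 1.68 in each. The dimmest Mat2a probe differed by -0.51 and -0.35. Mat2b, its regulatory subunit, differed by -0.86 and -0.60, short of 2-fold. Mtap, which cleaves the methylthioadenosine that both synthases release, rose by 1.49 and 1.25, although its second probe gave 0.71 and 0.84. Among the remaining 4 salvage genes, none reached 2-fold by the representative probe, and these differences ran from -0.35 to 0.93 in WT. The second probe of Mri1, an enzyme of the salvage of methionine, passed 2-fold in WT, at 1.22, with 0.42 in Nr4a-TKO.

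Spermidine also serves to modify eIF5A with hypusine. Eif5a, the translation factor that carries the mark, rose by 2.16 in WT (4.46-fold) and 1.87 in Nr4a-TKO, and its second probe by 2.42 and 2.04. Dhps and Dohh, the enzymes that make hypusine, did not reach 2-fold and differed by 0.50 and 0.85 in WT and by 0.44 and 0.66 in Nr4a-TKO. Of the transport genes, 3 could be compared and none was called by the representative probe. Atp13a2, which exports polyamines from lysosomes, lay closest to 2-fold with -0.998 in WT, although its second probe gave 0.12, and Atp13a3 differed by 0.65. Slc3a2 was read by a representative probe at log2 signals from 16.44 to 16.52 on all arrays, which differed by 0.06 in each genotype. Its other probes gave 2.13 and 1.51 in WT and 1.53 and 1.43 in Nr4a-TKO. These passed 2-fold in both genotypes, so that the call for Slc3a2 depends on the probe.

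**Figure D3:**
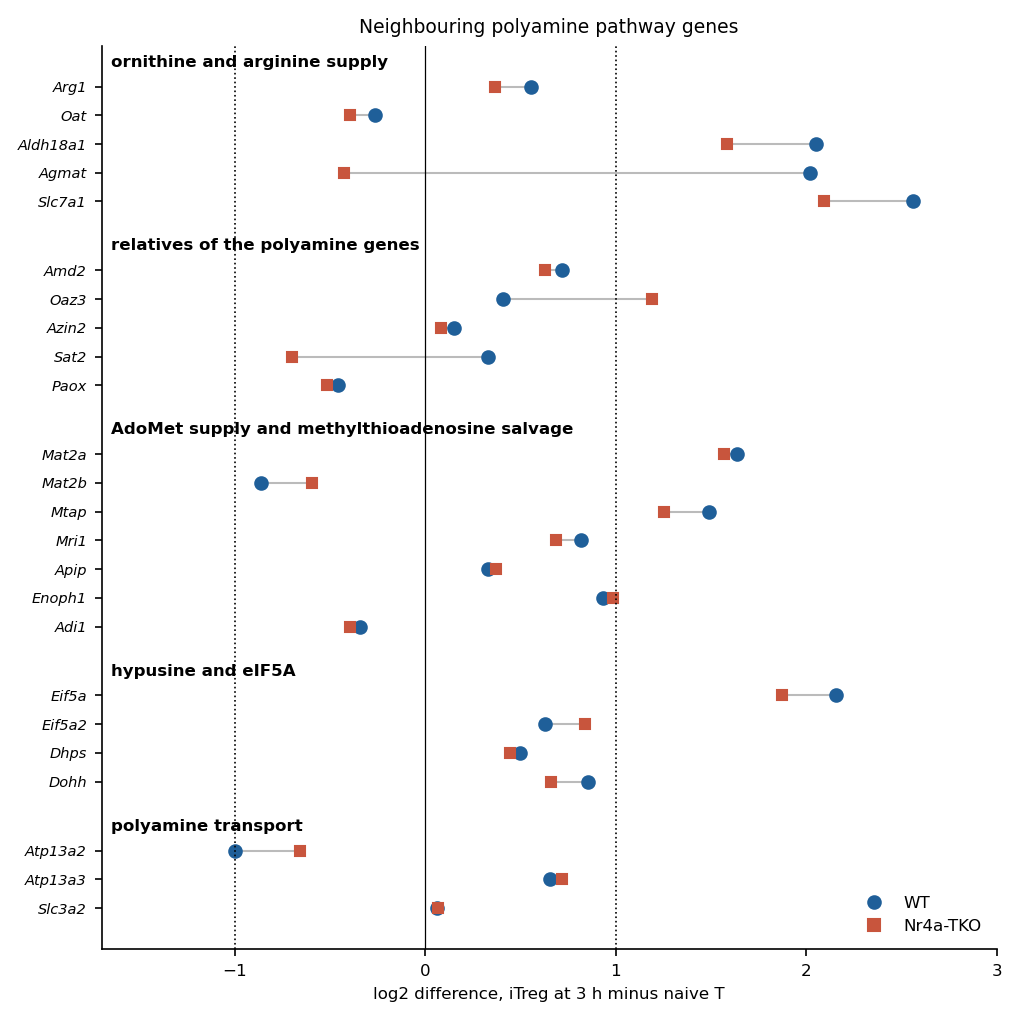
Log2 difference between iTreg at 3 h and naive T (horizontal axis) of the 24 pathway genes that could be compared, grouped by list, in WT (blue circles) and Nr4a-TKO (red squares). Dotted lines mark 2-fold. Slc7a1, Aldh18a1, Mat2a, Mtap and Eif5a lie beyond 2-fold in both genotypes, Agmat in WT alone and Oaz3 in Nr4a-TKO alone.

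Between the genotypes, no polyamine gene passed 2-fold at either stage by its representative probe. None of the 8 members was more than 2-fold apart in naive T, where, of 23309 genes, 1.92% passed 2-fold upward and 1.68% downward on the array labelled Nr4a-TKO relative to WT. At 3 h none was apart by the representative probe either, beside 1.73% of 23701 genes higher and 1.93% lower. The members' median log2 difference was -0.02 in naive T and 0.03 at 3 h, and those of all genes were -0.01 and 0.00. By the representative probes, Odc1 differed by -0.01 and 0.05 and Sms by -0.01 and -0.04, which is within the array SD of 0.17 in naive T and 0.19 at 3 h. The second Odc1 probe differed by 0.05 in naive T and by 0.38 at 3 h, the latter beyond that SD, and the mean of both probes by 0.21 at 3 h.

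By their representative probes, Smox and Srm were the members farthest apart between the genotypes. On the arrays labelled Nr4a-TKO, Smox was higher by 0.27 in naive T and by 0.74 at 3 h (1.67-fold), where 3.16% of genes had a higher value. Its second probe was higher by 0.40 and by 1.30 (2.46-fold), and it was the only member probe beyond 2-fold between genotypes, beside 1.63% of 39748 probes higher and 1.88% lower at 3 h. In naive T, where no member probe passed 2-fold, 1.84% of 38983 probes were higher and 1.67% lower. With the mean of both probes, Smox would pass 2-fold at 3 h, at 1.02. All 3 probes of Srm were lower there at both stages, and the representative probe differed by -0.46 in naive T and -0.64 at 3 h. The other Srm probes gave -0.49 and -0.20 in naive T and -0.34 and -0.37 at 3 h. Sat1 differed by -0.15 and -0.43, and its second probe by -0.17 and -0.36. The third probe of Oaz2 differed by 0.94 and 0.73, while its representative probe differed by -0.10 and 0.01. Markers moved between the genotypes as well, though not in every list. By the representative probes, the myeloid markers differed by -0.02 to 0.14 in naive T and by -0.18 to 0.00 at 3 h. The second Itgam probe gave 1.31 and 0.40. Cd8a differed by -0.10 and -0.59 and Cd8b1 by -0.15 and -0.32. The erythroid markers ran from -0.44 to 0.51 in naive T and from -0.08 to 0.87 at 3 h. All 6 naive T cell markers were lower in Nr4a-TKO at 3 h, from -0.64 to -0.07, against -0.45 to 0.48 in naive T. Of the Treg markers, Foxp3 differed by -1.30 in naive T and -1.36 at 3 h. Its probe was well above background on all arrays, at 7.41 in WT and 6.11 in Nr4a-TKO naive T, although the cells were sorted as Foxp3-negative. Ikzf2 differed by -1.37 and 0.16, although its other probes gave -1.22 and -1.67 at 3 h. Of the activation markers, Tnfrsf9 differed by -1.86 in naive T and -3.61 at 3 h, while Cd69 differed by -0.06 and 0.41 and Egr2 by 0.57 and 0.17. The summed linear signal of the Treg markers was 296 in WT and 118 in Nr4a-TKO naive T, and 248 and 142.5 at 3 h. The 3 B cell markers were well above background on all arrays, none at 0, with summed linear signals of 420 and 560 in WT and Nr4a-TKO naive T and of 302 and 427 at 3 h, where Cd79a differed by 1.14. The part of these markers' cells in the differences of Smox and Srm was not tested.

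The rise itself could also be set against that of the other genotype. For Smox, the change in Nr4a-TKO exceeded the change in WT by 0.90 by the second probe, which was dim in naive T. By the representative probe it did so by 0.46. An array SD for such a difference of differences is 0.25, and 18.7% of 19948 genes well above background on all arrays had a larger one. For the other members it lay between -0.28 (Sat1) and 0.17 (Oaz1) by the representative probes. It was 0.06 for Odc1 by that probe and 0.33 by the second. Changes beyond 2-fold in opposite directions could not occur among the members, as none was more than 2-fold lower at 3 h in either genotype. Of the 24 pathway genes, 0 passed 2-fold between the genotypes in naive T, and 1 was lower and 1 higher in Nr4a-TKO at 3 h. Over all genes, 1.92% were higher and 1.68% lower in naive T, and 1.73% and 1.93% at 3 h. The lower one was Agmat, an enzyme of the agmatinase family, which read 3.91 in WT naive T, 4.38 in Nr4a-TKO naive T, 5.94 in WT iTreg at 3 h and 3.96 in Nr4a-TKO iTreg at 3 h, so that the array of WT iTreg stood apart from the other 3. Its genotypes differed at 3 h by -1.98. The higher one was Oaz3, an antizyme known from the testis, which differed by 1.01, with 5.31 in Nr4a-TKO against 4.29 in WT. Both were dim, with the lowest signals well above background at 3.43 and 3.07 on these arrays.

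**Figure D4:**
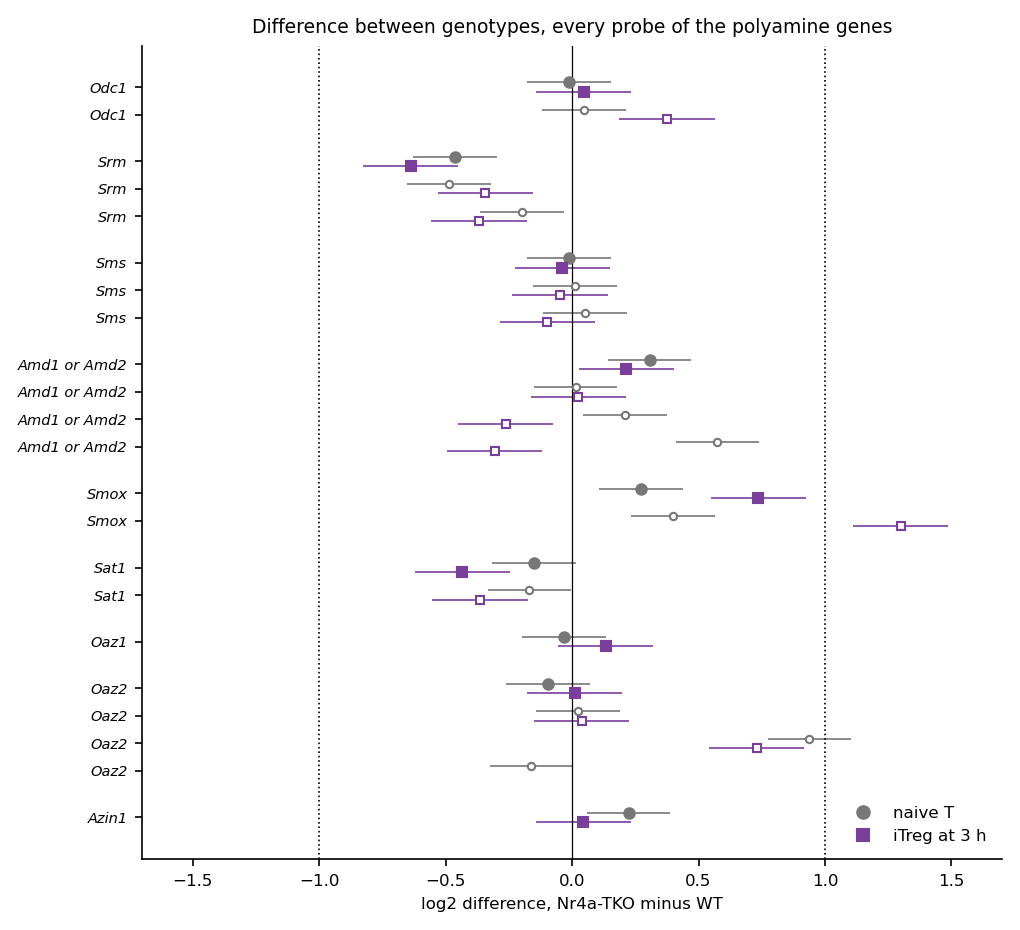
Log2 difference between Nr4a-TKO and WT (horizontal axis) for every probe of the polyamine genes (rows), in naive T (grey circles) and iTreg at 3 h (purple squares). Bars are 1 SD of repeated spots for a difference of 2 arrays, filled symbols are the probes that stand for their gene, and dotted lines mark 2-fold. The second Smox probe at 3 h is the single symbol beyond 2-fold, at 1.30, and all Srm symbols lie below 0.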

How the data were processed

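The scanner output of 4 arrays was used. The authors extracted the spots with Agilent Feature Extraction 11.5.1.1, per the submitters' processing notes, and deposited spot files with the mean foreground and median local background intensity, a processed intensity and flags. They also deposited log2 values, which equalled the log2 processed intensity minus a constant of each array (SD 0.0029), with their 75th percentile at 0, although the methods name RMA in GeneSpring. The medians of these columns were -2.16 for WT and -2.17 for Nr4a-TKO in naive T, and -2.33 and -2.28 at 3 h.

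The mean and background intensities were turned into log2 values with R 4.3.3, limma 3.58.1 and data.table (version 1.17.8), by normexp with an offset of 0 and quantile normalization over the 4 arrays. Control spots and 115 to 160 flagged spots per array were left out, 139 probes were dropped for lack of an unflagged spot, and the spots of a probe were averaged. Each gene was represented by the probe whose mean over the arrays was highest. Values that were not well above background were set at no less than the lowest signal well above background on the same array, and a difference was taken where at least 1 of 2 arrays was well above background. Names came from the files, and RefSeq (GRCm38.p6) renamed 1513 probes through their transcript and 519 through an older symbol. The probe coordinates are on mm9, for which no annotation was used here, so that exons and untranslated regions are not given.

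The threshold was 2-fold. Array precision came from 300 probes with at least 5 spots, and the number of arrays limits the precision further. The members, lists and rules for naming genes were chosen with earlier results of these data known. All probes of the 9 genes are named, with the pathway genes more than 2-fold apart in a comparison, the 5 genes nearest to Odc1 and the markers used as checks, and the other pathway genes with values were picked after their values were seen. The counting was tested on simulated data. Python 3.11.15, pandas 2.3.3, numpy 2.4.6 and matplotlib 3.10.9 were used. Alternatives were the processed intensity at the 75th percentile, an offset of 50, no background correction, the deposited log2 values, the mean of all probes, other filters on dim probes and thresholds of 1.5-fold and 3-fold. Counting the probes named Amd2 for Amd1 was added after the values were seen.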

Additional observations from a re-analysis of the deposited data

How the results depend on the processing

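With 1 array per group the values have no error from mice or cultures, and a call near 2-fold may change with the processing. Of the counts and medians recomputed under the alternatives, 101 kept within 1.5 times the count or 1 array SD of the median, and 11 did not. This tally is no measure of robustness. The filters on dim probes could not move a value, as all 8 representative probes were well above background on every array. Several counts were 0 in the main setting, and the deposited values are the processed signal again, scaled by a constant of each array. The counts of members more than 2-fold higher at 3 h were 4 in both genotypes under each alternative at the 2-fold threshold except the deposited values in WT, which gave 5, with Azin1 added. At 3-fold the count was 2 in WT (Odc1 and Srm) and 3 in Nr4a-TKO. At 1.5-fold it was 5 in each genotype, with Azin1 added, and 1 member, Oaz2, was lower in each. Shares over all genes were not taken at 3-fold or 1.5-fold, between stages or between genotypes, so that the counts at these thresholds describe the members only. The median difference between stages was 1.21 in WT with the processed signal at the 75th percentile and 1.23 in WT and 1.12 in Nr4a-TKO with the deposited values. With the probes named Amd2 counted for Amd1, an alternative added after the values were seen, it was 0.85 in WT and 0.67 in Nr4a-TKO, as the set then had 1 more member. Between the genotypes at 3 h, 1 member, Smox, was more than 2-fold higher with the mean of all probes. At 1.5-fold 1 member (Smox) was higher and 1 (Srm) lower. The cause was not tested for the scalings. The processed signal at the 75th percentile moved the median of all genes to -0.11 in WT, and values near 0 changed sign or reached 0 between settings, namely the genotype differences of Oaz2 at both stages and of Odc1 and Sms in naive T and the difference of Sat1 between stages in Nr4a-TKO. No change of Odc1, Srm, Sms or Smox between stages changed direction under these alternatives. Smox rose by 1.21 to 1.85 in WT and by 1.67 to 2.54 in Nr4a-TKO. Over all genes, the share more than 2-fold higher at 3 h ran from 4.18 to 10.1% in WT and from 3.52 to 9.47% in Nr4a-TKO, and that between the genotypes from 0.442 to 2.85% in naive T and from 0.317 to 2.79% at 3 h, each lowest with a normexp offset of 50. With that offset the shares more than 2-fold lower were 3.96%, 3.47%, 0.382% and 0.435% in the same order. No paired analysis was possible because each group has 1 array, so that the groups share no more than 1 replicate number. An additive fit of stage and genotype, which would leave 1 residual degree of freedom, was not run.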
